A study of Caenorhabditis elegans with 11 samples.

Results

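The small heat shock proteins of Caenorhabditis elegans were followed here through 10 genes: hsp-16.1, hsp-16.2, hsp-16.11, hsp-16.41, hsp-16.48, hsp-16.49, hsp-17, hsp-12.3, hsp-12.6 and sip-1. All probe sets annotated to at least 1 of these genes were taken, which gave 9 probe sets of the 22625 on the array. A probe set is a group of short probes that gives 1 signal for a transcript. One probe set is shared by hsp-16.1 and hsp-16.11, and another by hsp-16.48 and hsp-16.49, so the transcripts within each of these couples could not be told apart. The gene sip-1 has 2 probe sets, and each of the other 5 genes has 1.

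Small heat shock proteins are chaperones with an alpha-crystallin domain. They assemble into oligomers and bind unfolding proteins without using ATP, which keeps those proteins from aggregating until other chaperones refold them. The hsp-16 genes are nearly silent in unstressed worms and are switched on by heat and other protein-damaging stress through the heat shock factor HSF-1. Lowered insulin signalling, through the transcription factor DAF-16, also raises several small heat shock genes, hsp-12.6 among them. The protein of sip-1 is an exception to the inducible class and is present in oocytes and embryos without stress. In the reference gene table (assembly WBcel235) hsp-16.2 and hsp-16.41 were direct neighbours. There hsp-16.1, hsp-16.48, hsp-16.49 and hsp-16.11 followed each other without another gene between them, and hsp-12.3 lay beside hsp-12.6.

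Whole hermaphrodites 3 days old were measured, which had been placed at 25°C as first-stage larvae and were sterile as adults. Strain TJ1090 stands in the sample labels and TJ1060 in the design text, with no genotype. Control worms were untreated (n = 4 arrays), oxygen worms spent 6 hours in 99% oxygen at 40 PSI and 20°C (n = 4), and a last group had skn-1 RNAi as well as that exposure (n = 3). SKN-1 is the Nrf-type transcription factor of detoxification genes, and the study asked which oxygen responses depend on it. No worms with skn-1 RNAi but without oxygen, and no oxygen-exposed group with a control RNAi, are analysed here. Pressure, temperature change and handling cannot be told apart from oxygen, and in whole worms fewer cells of a type cannot be told apart from less RNA per cell.

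The deposited values are linear signal intensities, whose totals were 6863652 to 9138002 per array. The arrays formed 2 sets by their signal for the manufacturer's spike-in RNAs, with array medians of 96.7 to 166.9 in set 1 and 2.6 to 15.4 in set 2. Set 1 held control 1 and 2 and oxygen 1 and 2, and set 2 held the other arrays, including every skn-1 RNAi array. The trimmed mean signal, with the most extreme probe sets left out, was 206.8 to 216.3 in set 1 and 250.1 in set 2, so the sets differed in signal level. Group means of signal are given with their SD, and a fold is the ratio of geometric means. Calls rest on limma across 15389 tested probe sets, with Benjamini-Hochberg adjustment and a threshold of 0.05. As a stand-in for a detection limit, each array's own 40th percentile was used, and tests were run on probe sets that reached it on 3 or more arrays. Of the 9 small heat shock probe sets 8 were tested; that of hsp-12.6 was not. The glutathione S-transferase gene gst-4, read in the study through a GFP reporter strain, went from 365 ± 283 in control to 4528 ± 522 in oxygen and 1240 ± 516 with skn-1 RNAi, and its difference between RNAi and oxygen was not called (adjusted p = 0.258). The RNAi target skn-1 has 3 probe sets, which read 535 ± 174, 461 ± 233 and 271 ± 215 in control and 510 ± 118, 415 ± 168 and 271 ± 202 in oxygen. With skn-1 RNAi they read 347 ± 102, 311 ± 65.4 and 333 ± 71.7, lower than oxygen on 2 and higher on the other, and none of these differences was called (adjusted p 0.547, 0.769 and 0.759). In a limma fit with the array set as a block all 3 were lower than oxygen, by log2 −0.76, −0.92 and −0.48. None of these was called (adjusted p 0.318, 0.110 and 0.463). Against control that fit called the second of the 3 lower (log2 −1.01, adjusted p = 0.0341).

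Under oxygen the hsp-16 genes stood apart from the other small heat shock genes. Transcripts of hsp-16.48 and hsp-16.49 rose 6.28-fold and those of hsp-16.1 and hsp-16.11 rose 5.42-fold. Signals of hsp-16.2 and hsp-16.41 were 4.63-fold and 4.83-fold higher in the oxygen group, and these 2 differences did not pass the test. For hsp-17, hsp-12.3 and both sip-1 probe sets the control and oxygen arrays overlapped. Of the 8 tested probe sets 2 were called higher and 0 lower, against 3.29% called higher and 0.539% called lower among all tested probe sets. With the array set as a block 3 were called higher, against 7.39%. In 4 of the 8, all of hsp-16 genes, the signal of every oxygen array lay above that of every control array, as in 6.6% of all tested probe sets. The arrays of set 2 had higher 40th percentiles (35.7 to 53.4, against 15.1 to 26.5 in set 1), so the ranks were also compared. By percentile rank within the array, the 2 shared probe sets kept groups without overlap, against 5.63% of all tested, and hsp-16.2 and hsp-16.41 overlapped. The median log2 change of the 8 was 1.12, beside 0.06 for all tested probe sets.

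The shared probe set of hsp-16.48 and hsp-16.49, members of the hsp-16 cluster, read 126.3, 98.4, 84.3 and 250.6 in control arrays 1 to 4. In oxygen arrays 1 to 4 it read 859.9, 721.3, 776.1 and 847.1. Every oxygen array was far above every control array, and the oxygen arrays lay close together, whereas control 4 was the high one of its group. The mean went from 139.9 ± 75.8 (SD, n = 4) to 801.1 ± 64.7 (n = 4). The log2 change was 2.65 ± 0.34 (SE), with a 95% interval of 1.89 to 3.41 and an adjusted p of 0.0022. Both sets showed the increase, 7.06-fold in set 1 and 5.58-fold in set 2, and the call held in each fit with 1 array left out (adjusted p up to 0.0101). In set 2 alone, on 7 arrays, the adjusted p was 0.0753.

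The probe set shared by hsp-16.1 and hsp-16.11, which encode the other class of hsp-16 protein, read 77.3, 58.9, 26.2 and 118.1 in control. It read 572.9, 464.5, 223.7 and 204.8 in oxygen. The groups did not overlap, and the oxygen arrays of set 1 were above those of set 2. From 70.1 ± 38.3 to 366 ± 181, the log2 change was 2.44 ± 0.51 (95% interval 1.30 to 3.58, adjusted p = 0.0254). Its size was 7.65-fold in set 1 and 3.85-fold in set 2. With the replicate number as a block, which pairs control and oxygen arrays, the adjusted p was 0.0595 and the call was lost. It was also lost without control 1, control 2, oxygen 1 or oxygen 2 (adjusted p 0.0559 to 0.0706), in set 2 alone (0.229), and with quantile normalization (0.104) or median centring (0.199).

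For hsp-16.2, whose promoter is the usual reporter of heat shock in living worms, control signals were 16, 18.8, 24 and 3.3. Oxygen signals were 67.5, 65.3, 49.7 and 50.6. All oxygen arrays were above all control arrays, and control 4 was the lowest array of all. Only 2 of the control arrays reached the 40th percentile, and the RNAi and oxygen groups had 3 such arrays each. The log2 difference of 2.21 ± 0.68 had a 95% interval of 0.70 to 3.72 and an adjusted p of 0.125. Without control 4 the fold was 2.97 (adjusted p = 0.182). In set 1 the fold was 3.80, and in set 2, where both controls were below the percentile, oxygen was at least 1.23-fold above them. Oxygen 4, an array of set 2, was itself below its own percentile. The limma fit within set 2 gave an adjusted p of 0.313.

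Its neighbour hsp-16.41, an hsp-16 gene of the same class as hsp-16.48, read 10.1, 18.3, 16.3 and 5.6 in control. Oxygen arrays read 72.9, 85.2, 43.7 and 33.9. Again no array of one group reached into the other, with the set 1 oxygen arrays highest. The log2 difference was 2.27 ± 0.57 (95% interval 1.02 to 3.53, adjusted p = 0.0562). With the array set as a block the gene passed, at the same size and an adjusted p of 0.0269. Only 1 control array reached the 40th percentile, and leaving out skn-1 RNAi array 3 also gave a call (adjusted p = 0.0258).

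**Figure D1:**
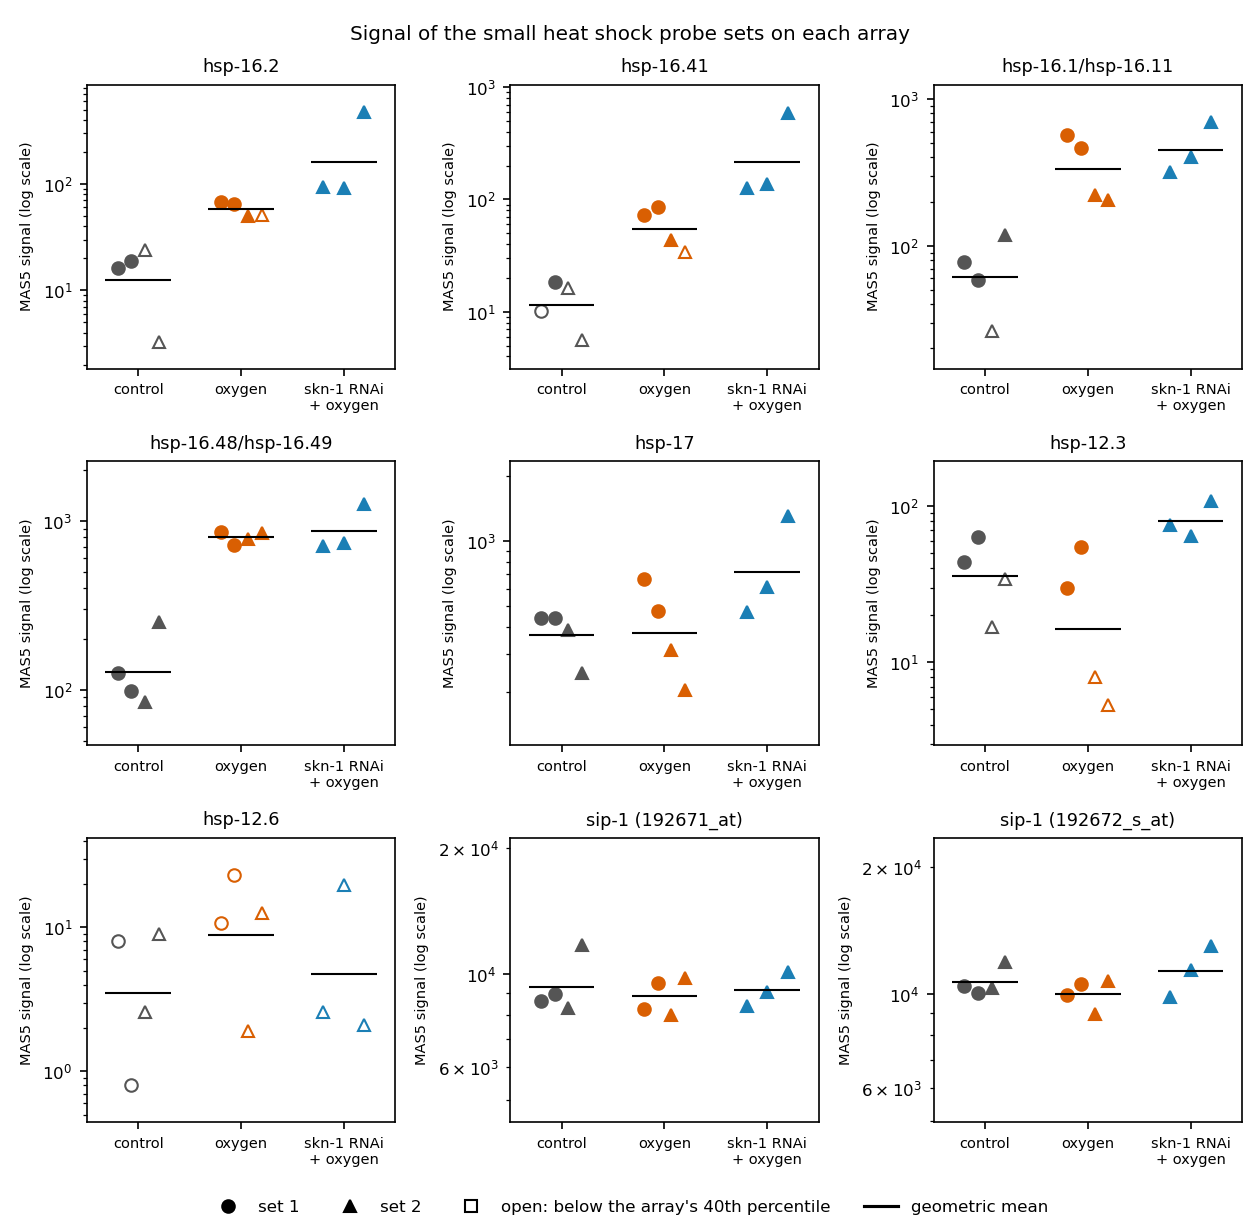
Signal of each small heat shock probe set on each of the 11 arrays, on a log axis, by group; symbols tell set 1 from set 2 and bars are geometric means. The 4 hsp-16 probe sets have the signal of every oxygen array above every control array, and hsp-17, hsp-12.3, hsp-12.6 and sip-1 have overlapping control and oxygen arrays.

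The gene hsp-17, a small heat shock gene outside the hsp-16 clusters, read 439.4, 441.4, 388.2 and 243.7 in control. It read 666.1, 471.6, 311 and 203.4 in oxygen. The groups overlapped throughout, and set 2 arrays were the low ones in both. The log2 difference was 0.03 ± 0.43, with a 95% interval of −0.93 to 0.98 (adjusted p = 0.994). The interval leaves room for a change of up to 1.98-fold upward and 1.90-fold downward. In set 1 the difference was 0.35 and in set 2 −0.29 on the log2 scale.

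The hsp-12 genes encode short members of the family with small flanks around the alpha-crystallin domain. Control arrays read 43.6, 63.6, 16.9 and 34 for hsp-12.3, and oxygen arrays read 29.7, 54.6, 8.1 and 5.3. The set 2 oxygen arrays were the lowest of all, below both set 2 controls, while set 1 arrays overlapped. The log2 difference was −1.13 ± 0.70 (95% interval −2.70 to 0.44, adjusted p = 0.567). Every control and oxygen array of set 2 lay below its 40th percentile, so no fold is given within that set. For hsp-12.6 the control signals were 8.1, 0.8, 2.6 and 9, and the oxygen signals were 10.8, 23.3, 1.9 and 12.5. None of the 11 arrays reached its 40th percentile for hsp-12.6, so its level was not measured here and it was not tested.

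Both probe sets of sip-1 were among the brightest on every array, at or above percentile 99.67 of the array. The first read 8607, 8987, 8307 and 11780 in control and 8266, 9555, 7979 and 9814 in oxygen. The second read 10443, 10050, 10353 and 11911 in control and 9930, 10570, 8969 and 10734 in oxygen. The groups overlapped on both, with control 4 highest. The log2 differences were −0.07 ± 0.19 (95% interval −0.49 to 0.35) and −0.09 ± 0.18 (−0.48 to 0.30), with adjusted p of 0.948 and 0.933. On either probe set, these intervals hold no decrease beyond 1.41-fold. Within set 2 alone the intervals were wider and reached decreases of 1.79-fold and 1.75-fold. The sign of both log2 differences turned with quantile normalization. The summed signal of 12 oocyte and germ line marker genes was 50934 to 68818 in control and 41472 to 48995 in oxygen. In that list 1 of 19 probe sets fell (glh-1) and 0 rose, against 0.539% called lower and 3.29% called higher among all tested probe sets. The oocyte yolk receptor gene rme-2 read 4274 ± 1094 in control and 3319 ± 470 in oxygen. Of 10 tested probe sets of 8 intestine marker genes 2 fell under oxygen and 0 rose. The part of these shifts in the small heat shock values was not tested.

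**Figure D2:**
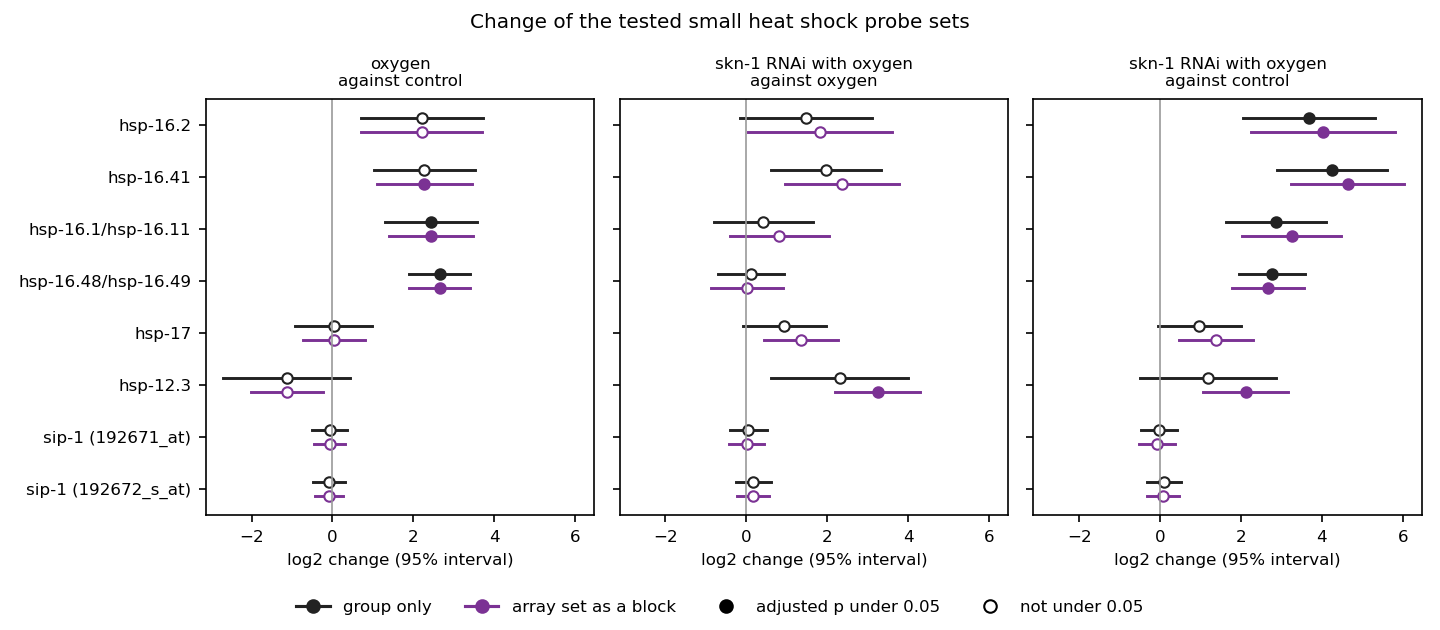
Log2 change of the 8 tested small heat shock probe sets in the 3 comparisons, with 95% intervals from the limma fit and with the fit that has the array set as a block beside it. The intervals of the 4 hsp-16 probe sets lie above 0 for oxygen against control and for skn-1 RNAi with oxygen against control, and those of sip-1 include 0 throughout.

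With skn-1 RNAi under the same oxygen exposure, no small heat shock transcript was called different from oxygen alone. The hsp-16 signals stayed above control, and hsp-16.2, hsp-16.41 and hsp-12.3 had a higher signal on every skn-1 RNAi array than on any oxygen array. In that comparison 0 of the 8 tested probe sets were called by limma (2 at an unadjusted p under 0.05), against 0.0455% called higher and 0.182% called lower among all tested probe sets. The 3 of 8 probe sets without overlap stand beside 12% of all tested probe sets. By percentile rank within the array 1 was without overlap, that of hsp-16.41, against 9.51%, and hsp-16.2 and hsp-12.3 overlapped. With the array set as a block 1 probe set, that of hsp-12.3, was called higher, against 0.182% of all. The median log2 difference was 0.68 for the 8 probe sets and 0.22 for all tested. With the array set as a block the median of all tested was 0.02.

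For hsp-16.48 and hsp-16.49 the skn-1 RNAi arrays read 709, 735.9 and 1253. They overlapped the oxygen arrays, with RNAi array 3 the highest array of all. The log2 difference from oxygen was 0.12 ± 0.37 (95% interval −0.70 to 0.94, adjusted p = 0.911), which allows a decrease of up to 1.63-fold and an increase of up to 1.92-fold. The sign turned to −0.09 with median centring. For hsp-16.1 and hsp-16.11 the RNAi arrays read 317.7, 400.7 and 698.4. These lay within and above the oxygen range. The log2 difference was 0.43 ± 0.55 (95% interval −0.80 to 1.65, adjusted p = 0.771), and within set 2 the fold moved from 1.34 to 2.09 (adjusted p = 0.565).

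The neighbours hsp-16.2 and hsp-16.41 had one array far above the rest. Signals of hsp-16.2 were 94.2, 91.8 and 477.3 in the RNAi arrays, and those of hsp-16.41 were 126.4, 138.3 and 586.1. All 3 were above every oxygen array for both genes, and array 3 was the high one. The log2 difference of hsp-16.41 from oxygen was 1.98 ± 0.61, or 3.94-fold (95% interval 0.62 to 3.34, adjusted p = 0.358). That of hsp-16.2 was 1.48 ± 0.73, or 2.78-fold (95% interval −0.15 to 3.11, adjusted p = 0.527). Without RNAi array 3 these folds were 2.40 (adjusted p = 0.799) and 1.61 (adjusted p = 0.809).

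Signals of hsp-17 were 469.8, 615.2 and 1303 in the RNAi arrays, again with array 3 highest. They overlapped the oxygen arrays through oxygen 1 and 2, which belong to set 1. The log2 difference from oxygen was 0.94 ± 0.46 (95% interval −0.09 to 1.98, adjusted p = 0.524), and with the array set as a block it was 1.36 ± 0.41 (adjusted p = 0.196).

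In skn-1 RNAi with oxygen against oxygen, the call of hsp-12.3 depended on how the array sets were treated. Its RNAi arrays read 75.8, 64.5 and 107.6, all above every oxygen and every control array. The log2 difference from oxygen was 2.31 ± 0.76, or 4.97-fold (95% interval 0.62 to 4.0, adjusted p = 0.398). With the array set as a block it was 3.25 ± 0.47, or 9.53-fold (95% interval 2.20 to 4.30, adjusted p = 0.0178), and passed. Within set 2 both oxygen arrays were below the 40th percentile. There skn-1 RNAi was at least 1.70-fold above them, at an adjusted p of 0.0546. For hsp-12.6 the RNAi arrays read 2.6, 19.7 and 2.1, none at the percentile.

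The sip-1 probe sets read 8395, 9058 and 10102, and 9815, 11426 and 13007, in the RNAi arrays. Both overlapped oxygen and control. The log2 differences from oxygen were 0.05 ± 0.21 (95% interval −0.41 to 0.50) and 0.18 ± 0.19 (−0.25 to 0.60), with adjusted p of 0.941 and 0.716. Both signs turned with median centring. The summed signal of 7 body wall muscle marker genes was 21793 to 27030 in the RNAi arrays, against 10972 to 19416 in oxygen and 9474 to 21246 in control. None of the 16 tested muscle probe sets was called between skn-1 RNAi and oxygen. All RNAi arrays came from the array set with the higher signal level, whereas the oxygen and control ranges pool both sets. The sums were not split by set, so this difference in range cannot be told apart from the set difference. The part of this difference in the small heat shock values was not tested.

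Set against untreated worms, skn-1 RNAi with oxygen held the whole hsp-16 group higher. By measured signal, transcripts of hsp-16.41 rose 19.1-fold and of hsp-16.2 12.9-fold, against controls of which 1 and 2 of the 4 reached the 40th percentile. Within set 2, where no control reached it, they were at least 5.32-fold and at least 3.93-fold higher. Those of hsp-16.1 and hsp-16.11 rose 7.29-fold and those of hsp-16.48 and hsp-16.49 6.82-fold. Of the 8 tested probe sets 4 were called higher and 0 lower, against 2.49% and 0.851% of all tested probe sets. In 6 of the 8 every RNAi array had a higher signal than every control array, as in 16.9% of all tested. By percentile rank within the array these were the 4 hsp-16 probe sets, against 11.1%. With the array set as a block 5 were called higher, against 2.97%. This comparison uses the same control arrays as that of oxygen, so the increases in both are not independent of each other. The median log2 change was 1.98 for the 8 probe sets and 0.36 for all tested. With the array set as a block the median of all tested was 0.09.

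The mean of hsp-16.41 was 12.58 ± 5.81 (SD, n = 4) in control and 283.6 ± 262 (n = 3) with skn-1 RNAi. Its log2 change was 4.25 ± 0.61 (95% interval 2.89 to 5.61, adjusted p = 0.00645). Without RNAi array 3 the gene was still called, at 11.6-fold (adjusted p = 0.0196), whereas with quantile normalization or median centring it was not (0.0534 and 0.051). Within set 2 alone it was also called (adjusted p = 0.0462). The mean of hsp-16.2 went from 15.6 ± 8.80 to 221.1 ± 222, a log2 change of 3.69 ± 0.73 (95% interval 2.06 to 5.32, adjusted p = 0.0258). That call was lost without control 1 or without any 1 of the RNAi arrays (adjusted p 0.0574 to 0.0956), and with quantile normalization, median centring or set 2 alone (0.11 to 0.132). Without RNAi array 3 the fold was 7.46 and without control 4 it was 8.27.

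For hsp-16.1 and hsp-16.11 the mean with skn-1 RNAi was 472 ± 200 and the log2 change from control 2.86 ± 0.55 (95% interval 1.64 to 4.09, adjusted p = 0.0223). It too was lost without any 1 of the RNAi arrays or without control 2 (adjusted p 0.0595 to 0.105), and with quantile normalization, median centring or set 2 alone (0.0808 to 0.179). The mean of hsp-16.48 and hsp-16.49 was 899.2 ± 306. Their log2 change of 2.77 ± 0.37 (95% interval 1.95 to 3.59, adjusted p = 0.00433) was called in every fit with 1 array left out. Within set 2 alone, with its 7 arrays, its size was 5.97-fold and its adjusted p 0.0678.

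The genes hsp-17 and hsp-12.3 had all RNAi arrays above all controls without a call. The log2 difference of hsp-17 from control was 0.97 ± 0.46 (95% interval −0.06 to 2.01, adjusted p = 0.267). That of hsp-12.3 was 1.18 ± 0.76 (95% interval −0.51 to 2.88, adjusted p = 0.387), and with the array set as a block 2.12 ± 0.47, or 4.36-fold, which passed (adjusted p = 0.0383). In set 2 both controls of hsp-12.3 lay below the 40th percentile, and skn-1 RNAi was at least 1.98-fold above them, at an adjusted p of 0.0962. The sip-1 probe sets differed from control by −0.03 ± 0.21 (adjusted p = 0.952) and 0.09 ± 0.19 (adjusted p = 0.802).

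Whether the oxygen response differed between the array sets was tested as an interaction over the 8 control and oxygen arrays. Of the 8 tested small heat shock probe sets 0 were called by limma, and 0 at an unadjusted p under 0.05, against 0% of all tested probe sets. The intervals were wide. For hsp-16.2 the log2 difference between sets lay between −2.31 and 3.45, and for hsp-12.3 between −3.17 and 0.21. That of hsp-16.48 and hsp-16.49 lay between −2.09 and 1.41.

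Across the 11 arrays, after the set effect was taken out, the couples of hsp-16 probe sets followed each other closely. The neighbours hsp-16.2 and hsp-16.41 had a Pearson r of log2 signal of 0.97, and so did the shared probe set of hsp-16.48 and hsp-16.49 with that of hsp-16.1 and hsp-16.11. Between these couples r was 0.71 to 0.82. The r of hsp-17 was 0.83 with hsp-16.41 and 0.76 with hsp-12.3. All these values share the arrays and the 3 groups, and part of any such r is the group difference. The hsp-16 genes also resemble each other in sequence, so probes of one can read another.

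The genes with the most similar pattern were taken from 14444 tested probe sets with 1 gene, by r after the set effect was taken out. Nearest to hsp-16.48 and hsp-16.49 were mca-1, a plasma membrane calcium pump gene (0.99), F15E6.4 and catp-3 (0.97 each). F15E6.4 (0.96) and mca-1 (0.95) were also nearest to hsp-16.1 and hsp-16.11, followed by the muscle myosin gene unc-54 (0.95), whose r without that step was 0.37. For hsp-16.41 they were the lysozyme gene lys-2 (0.96) and 2 probe sets of lea-1 (0.95), a gene of a protein of the desiccation-linked LEA type. For hsp-16.2 they were gei-4 (0.98, and 0.63 without the set step), cht-3 (0.97) and ctr-9 (0.95). For hsp-17 they were gei-17 (0.96, and 0.43 without the set step), kin-10 (0.94, and 0.41) and ugt-12 (0.93), and for hsp-12.3 misc-1 (0.97), sup-46 and pph-6 (0.96 each). The first sip-1 probe set was nearest to psd-1 (0.97), rps-24 (0.94) and ndk-1 (0.93), and the second to rab-8 (0.93), spig-11 (0.92) and sur-5 (0.89). These are the highest of many values over 11 arrays, and no test is attached to them.

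**Figure D3:**
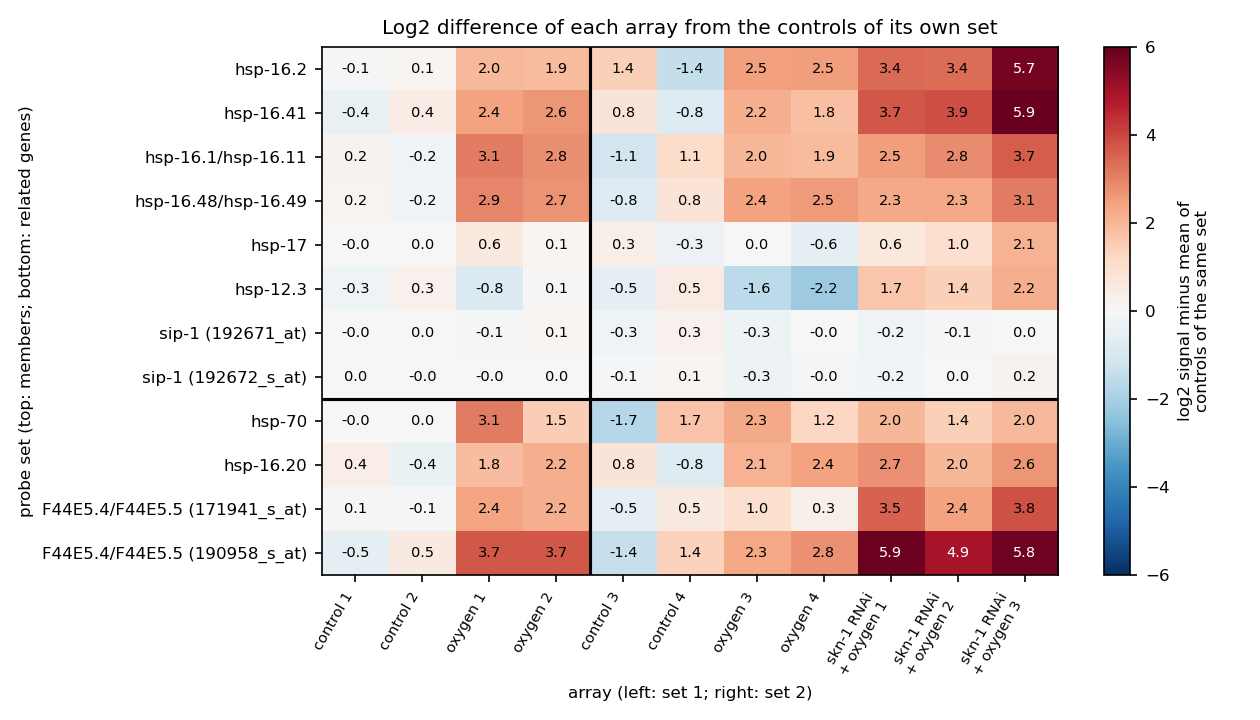
Log2 signal of each array minus the mean of the controls of its own set, for the tested small heat shock probe sets and for other heat shock genes named in the text; color and number give the log2 difference. The hsp-16 rows are above 0 in all oxygen and skn-1 RNAi arrays, with skn-1 RNAi array 3 highest for hsp-16.2 and hsp-16.41.

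Relatives outside the 10 genes included a further hsp-16 gene that rose. Of all tested probe sets 3.29% were called higher under oxygen. Among 8 other small heat shock and alpha-crystallin genes, 7 were tested and 1 rose under oxygen. This was hsp-16.20, whose control arrays read 14.1, 8.3, 23.2 and 7.7 and whose oxygen arrays read 38.6, 48.3, 56 and 71.2. No control array reached its 40th percentile and every oxygen array did. Oxygen was at least 2.07-fold higher (adjusted p = 0.0114). With skn-1 RNAi the gene was at least 2.89-fold above control (adjusted p = 0.00967) and was not called against oxygen. Its neighbour in name, hsp-16.21, was below the percentile on all 11 arrays and was not tested. The others, hsp-12.1, hsp-12.2, hsp-25, hsp-43, Y55F3BR.6 and ZK1128.7, were not called. The last of these, ZK1128.7, passed with the array set as a block (log2 1.36, adjusted p = 0.0252). The median log2 change under oxygen of the 7 tested was −0.02, beside 0.06 for all tested probe sets.

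Of the regulators of the heat shock response, hsf-1, hsb-1 and ddl-1 gave 5 tested probe sets, and 0 were called in any of the 3 comparisons. Of all tested probe sets 3.29% were called higher and 0.539% lower under oxygen. In skn-1 RNAi with oxygen against control these shares were 2.49% and 0.851%, and against oxygen 0.0455% and 0.182%. The median log2 change of these 5 under oxygen was −0.05. The probe sets of hsf-2 and ddl-2 were not tested. Of 14 other cytosolic chaperone and cochaperone genes, such as hsp-1, hsp-70, hsp-90 and hsp-110, 13 were on the array with 19 tested probe sets. Under oxygen 0 were called, against 3.29% called higher and 0.539% called lower among all tested probe sets. The median log2 change of the 19 was −0.17. The log2 difference of hsp-70 was 2.03 ± 0.75 (adjusted p = 0.217), with 1 of 4 control and 2 of 4 oxygen arrays at the 40th percentile. In skn-1 RNAi with oxygen against control 2 rose, against 2.49% of all tested probe sets. Both were probe sets shared by the inducible Hsp70 genes F44E5.4 and F44E5.5. One changed by log2 4.93 ± 0.86 (adjusted p = 0.0147), from 11.1 ± 7.19 to 268 ± 87.5. The other changed by 2.92 ± 0.69 (adjusted p = 0.0491). Of the 4 control arrays, 1 reached the 40th percentile on the first probe set and 2 on the other. Within set 2, where no control reached it, skn-1 RNAi was at least 6.30-fold and at least 3.26-fold above control. Under oxygen alone the first of these differed by 3.13 ± 0.79 (adjusted p = 0.0606, and 0.00939 with the array set as a block). The other differed by 1.45 ± 0.64 (adjusted p = 0.323, and 0.0738 with the array set as a block). On both probe sets every control and oxygen array of set 2 lay below its 40th percentile.

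A list of 17 genes of the insulin pathway or raised by DAF-16, which also acts on small heat shock genes, gave 25 tested probe sets. None of these was of daf-2, whose probe sets were not tested. Under oxygen 7 rose and 0 fell, against 3.29% and 0.539% of all tested probe sets, and the median log2 change of the 25 was 0.46. Among those that rose were the metallothionein mtl-1 (17.2-fold, adjusted p = 0.00149), the catalase probe set shared by ctl-1 and ctl-3 (2.79-fold, adjusted p = 0.00787), dod-3 (6.97-fold, adjusted p = 0.00986) and ctl-2 (2.73-fold, adjusted p = 0.0138). A probe set of akt-2, a gene of the insulin pathway itself, also rose (2.96-fold, adjusted p = 0.0222). Another probe set of akt-2 was not called (2.76-fold, adjusted p = 0.177). The superoxide dismutase gene sod-3 differed by a log2 value of 0.02 ± 0.28 and fat-5 by 0.21 ± 0.82, and scl-1 by −0.26 ± 0.81, none of them called. These 3 genes were chosen after their values were seen. Between skn-1 RNAi with oxygen and oxygen 0 of the 25 were called, against 0.0455% called higher and 0.182% called lower among all tested probe sets. The median log2 difference of the 25 was −0.0005, beside 0.68 for the small heat shock probe sets.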

How the data were processed

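Signals of 11 Affymetrix C. elegans Genome Arrays, 1 per sample of total RNA, were used. Per the submitters' processing notes, the deposited linear intensities come from MAS5 and GCOS 1.4. Probe sets were named from GEO's platform annotation, and the reference gene table served for names and neighbours.

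Of 22625 probe sets 77 were controls. Testing was limited to the 15389 that reached the 40th percentile of an array on 3 or more arrays. A floor of 0.1 replaced the 1 signal of 0. Log2 signals were fitted with limma 3.58.1 (R 4.3.3; lmFit, eBayes) with group alone as term over the 11 arrays, two-sided, in a script checked on simulated data. The interaction fit used the 8 control and oxygen arrays. For a group below the percentile throughout, "at least" folds divide the brighter group by the higher, per array, of the percentile and the own signal. Alternatives were the array set as a block, set 2 alone, the replicate block, the 2 groups compared only, quantile normalization, median centring, no or a stricter filter (60th percentile), log2 of signal plus 16, and leaving out each array. The comparison by percentile rank was added after seeing the data.

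Deviations from group means correlated at 0.449 to 0.565 between control and oxygen arrays of the same number. They correlated at 0.346 to 0.533 between other control and oxygen arrays of the same set. These ranges overlap, so they do not settle whether equal numbers mark pairs, and the reported fit uses no pairs. With skn-1 RNAi arrays of the same number the correlations were −0.128 to −0.00446. The labels do not state separate cultures, so a p-value here reflects variation among these samples, which may be technical. Precision is limited by the array number.

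All member probe sets are named, with skn-1 and gst-4 as checks, up to 4 called genes per list and comparison with akt-2 added, and the 3 nearest patterns. The members and lists were chosen with earlier results of these data known. Promoter motifs were not searched.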

Additional observations from a re-analysis of the deposited data

How the results depend on the processing

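The number of small heat shock probe sets called higher under oxygen, 2, became 1 with the replicate block, with only the 2 groups compared, with quantile normalization, with median centring and with no filter, each time leaving the probe set of hsp-16.48 and hsp-16.49. Within set 2 alone, on fewer arrays, it was 0, and with 1 array left out it was 1 to 3. The replicate block ended the call of hsp-16.1 and hsp-16.11 and no other small heat shock call. In skn-1 RNAi with oxygen against oxygen the count of 0 became 1 with the array set as a block and was 0 to 0 with 1 array left out. Against control the count of 4 became 1 within set 2, with quantile normalization and with median centring, and 2 to 4 with 1 array left out. For the interaction with array set it was 0 in every fit run. Signs turned for hsp-17, sip-1 and the shared hsp-16.48 and hsp-16.49 probe set, whose log2 values in the reported fit were 0.18 or less in size. For hsp-16.48 and hsp-16.49 against oxygen, skn-1 RNAi gave −0.094 with median centring, and −0.15 to 0.26 with 1 array left out. For hsp-17 oxygen gave −0.29 within set 2, −0.059 with quantile normalization, −0.33 with median centring, and −0.25 to 0.32 with 1 array left out. For the first sip-1 probe set the values were 0.12 (quantile, oxygen), −0.17 (median centring, RNAi against oxygen), 0.054 and 0.13 (replicate block and quantile, RNAi against control). With 1 array left out they ran from −0.13 to 0.039, −0.024 to 0.11 and −0.097 to 0.086 in the 3 comparisons. For the second they were 0.064 (quantile, oxygen), −0.036 and −0.49 (median centring, RNAi against oxygen and against control), with −0.010 to 0.19 against control with 1 array left out. Adding 16 to each signal lowered the folds of dim genes, for hsp-16.2 to 2.42 under oxygen and 5.91 with skn-1 RNAi against control, for hsp-16.41 to 2.56 and 8.41, and for hsp-12.3 against oxygen to 2.70. Over the settings other than leaving arrays out, 177 values for single probe sets kept direction and side of the threshold, 18 lost a call, 4 gained one and 11 changed sign. Median centring moved the median of all tested probe sets from 0.06 to −0.31 under oxygen and from 0.36 to −0.22 for skn-1 RNAi against control. Calls over all tested probe sets under oxygen were 507 higher and 83 lower, 221 and 73 with median centring, and 1137 and 288 with the array set as a block. For skn-1 RNAi against control they were 383 and 131, 208 and 220 with quantile normalization, 110 and 105 with median centring, and 1364 and 305 with the replicate block. For skn-1 RNAi against oxygen they were 7 and 28, and 28 and 88 with the array set as a block. The cause of these shifts was not tested.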
